A study of Mus musculus with 6 samples.

Results

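Stem cells carrying BCR/ABL from mice given imatinib were compared with stem cells carrying an empty vector, on 4 of the 6 Affymetrix arrays of a mouse leukaemia series. The arrays were chosen by their titles: BCR/ABL_treated_1 and BCR/ABL_treated_2 on the imatinib side and Vector_1 and Vector_2 on the vector side. The remaining pair of arrays, BCR/ABL_1 and BCR/ABL_2, held untreated BCR/ABL cells and served to tell a difference that imatinib left in place from a difference that appeared with it. Every group was sorted from mouse bone marrow as GFP+Lin-c-Kit+Sca-1+ cells, a gate for haematopoietic stem cells and early progenitors. All 3 groups therefore carried a GFP construct, and the groups differed in BCR/ABL and in treatment of the mice. The sources used here do not give the imatinib dose and duration, the mouse strain or the age of the mice. No array held vector cells from mice given imatinib, so in these data an action of the drug on cells without BCR/ABL and its action through BCR/ABL cannot be told apart. The labels do not say whether replicate arrays hold separate mice, pools or repeats of 1 RNA, so the p-values below measure the spread between these arrays, which may be technical, and nothing more.

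BCR/ABL is the fused tyrosine kinase that drives chronic myeloid leukaemia. It signals through STAT5, the RAS and ERK cascade and the PI3K and AKT pathway, which holds FoxO transcription factors out of the nucleus. Imatinib occupies the ATP site of the ABL kinase and also binds KIT and the PDGF receptors. In patients the drug clears most leukaemic cells while leukaemic stem cells can persist, which is why the state of treated stem cells is of interest.

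Levels below are log2(intensity + 16) after quantile normalization, so 1 unit is a 2-fold difference at high signal, 4 is the floor, and folds of dim genes are understated. A comparison of 2 arrays with 2 gives 4 array pairs. A gene is described as higher or lower in all 4 pairs when both arrays of the imatinib group lay on the same side of both vector arrays. An exact permutation test of 2 arrays against 2 cannot go below p = 0.33, so tests came from limma, fitted over all 6 arrays and 35877 annotated probe sets with Benjamini-Hochberg adjustment. Median deposited intensity ran from 35.6 to 57.2 over the 6 arrays, and 36.1% to 41.5% of probe sets lay below an intensity of 16. Kit, the receptor used in the sort, was bright on every array, between 10.13 and 11.39. The 2 vector arrays were less alike than the other replicate arrays, with a correlation over probe sets of 0.969 against 0.989 for untreated BCR/ABL and 0.985 for imatinib. B cell and early lymphoid markers lay higher on vector replicate 1, and granulocyte markers lay lower on vector replicate 2, so results for these cell types are given with and without those arrays.

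Between imatinib-treated BCR/ABL cells and vector cells, 16 of 35877 probe sets passed an adjusted p of 0.05, which is 0.0446%. They were 15 higher and 1 lower, and came to 15 named genes, because 1 of them is shared by Akr1c12 and Akr1c13. Without adjustment 4949 probe sets had a p under 0.05, of which 2504 were higher and 2445 lower. Untreated BCR/ABL against the same vector arrays gave 22 called probe sets, or 0.0613%, and 13 of the 16 were also called there. The number of calls hung on single arrays: it was 0 without BCR/ABL replicate 1, without BCR/ABL replicate 2 or without imatinib replicate 1, 10 without imatinib replicate 2, 30 when vector replicate 1 was left out and 54 when vector replicate 2 was. With arrays aligned only by their medians the split was 201 higher and 74 lower.

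**Figure D1:**
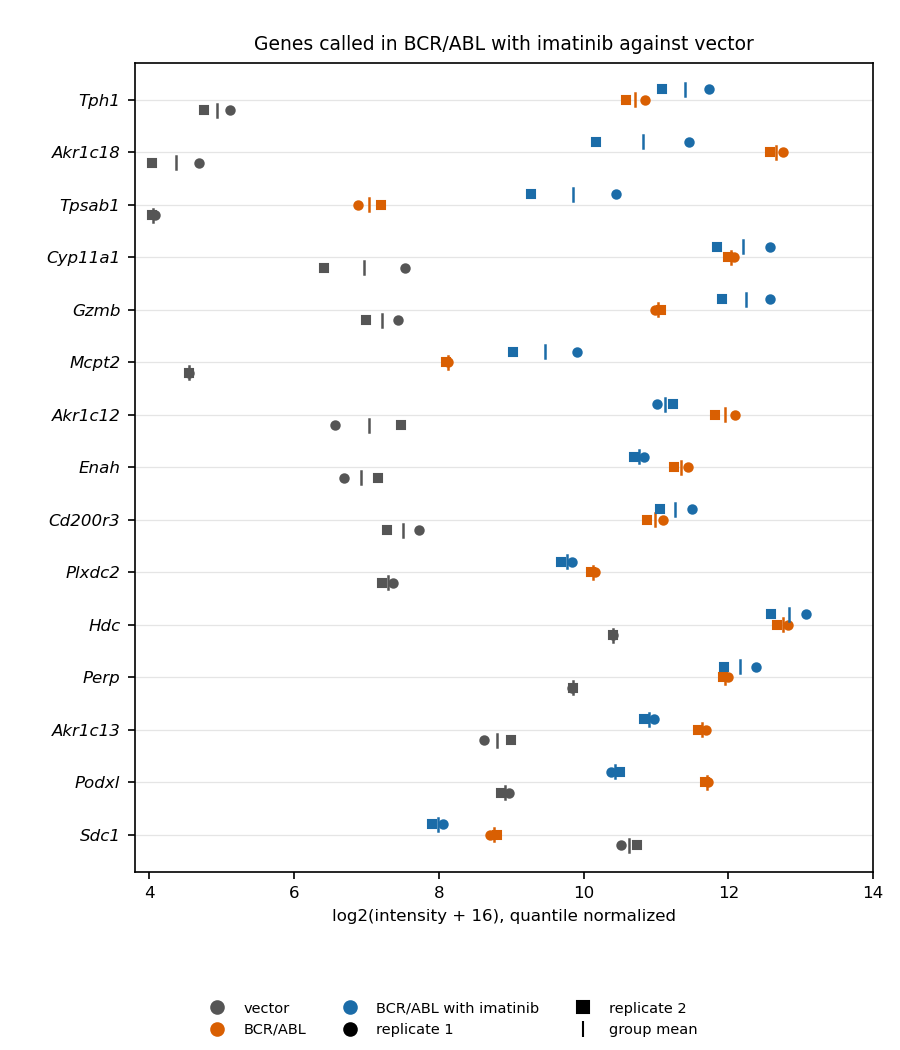
Levels on each array of the 15 genes called in BCR/ABL with imatinib against vector, as log2(intensity + 16) after quantile normalization; circles and squares are replicates 1 and 2 and short bars are group means. Tph1 stood at 4.75 and 5.11 on the vector arrays and at 11.08 and 11.73 with imatinib, and Sdc1 is the gene that lay below vector.

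Among the called genes was Tph1, tryptophan hydroxylase, the enzyme that begins serotonin synthesis outside the brain. Its levels were 5.11 and 4.75 on the vector arrays, 10.85 and 10.58 in untreated BCR/ABL, and 11.73 and 11.08 with imatinib. The imatinib arrays and the untreated arrays all lay more than 5 units above both vector arrays, and the highest level was on an imatinib array. Tph1 rose by 6.47 ± 0.29 (SE) against vector (limma adjusted p = 0.0193), beside 5.78 in untreated BCR/ABL. Its vector signal lay around the floor, so the size depends on the added constant: it was 7.47 with a constant of 1 and 5.13 with 64. The same holds for Akr1c18 (8.83 and 4.75) and Tpsab1 (9.18 and 3.93), described below, and the called genes near the floor are not ranked by size. Hdc, which makes histamine from histidine, was at 10.40 on each of the 2 vector arrays, 12.83 and 12.68 without imatinib, and 13.08 and 12.59 with it. The treated and untreated arrays of Hdc overlapped and both groups stood above vector, and the rise with imatinib was 2.44 ± 0.17 (limma adjusted p = 0.0363).

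Of 12 genes of serotonin and histamine metabolism, transport and reception, 8 were higher than vector in all 4 pairs with imatinib and none was lower, where 21.8% of all 18193 genes were higher and 22.3% were lower. The list's median difference was 2.37 beside -0.001 for all genes, and 1.60 in untreated BCR/ABL. This list and those below were written with earlier results of these data known, so their counts describe the data and test nothing. The same 21.8% and 22.3% of all genes stand beside every later list count against vector. Maob, a mitochondrial oxidase of amines, was at 4.07 and 4.03 in vector cells, 7.76 and 7.46 without imatinib and 8.70 and 8.09 with it. It missed the threshold (difference 4.35, limma adjusted p = 0.0688). Slc6a4, the serotonin transporter, differed from vector by 3.67, Ddc, which makes serotonin from its precursor, by 3.56, and Htr1b, a serotonin receptor, by 2.45. None of those was called. Tph2, the brain form of tryptophan hydroxylase, stayed at the floor on all arrays, between 4.03 and 4.13.

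Of the called genes, 2 encode granule proteases of mast cells, Tpsab1 and Mcpt2. Tpsab1, a mast cell tryptase, stood at the floor on the vector arrays (4.07 and 4.04), at 6.88 and 7.20 in untreated BCR/ABL and at 10.45 and 9.27 with imatinib. No group overlapped another, and the imatinib arrays were the highest. The rise against vector was 5.81 ± 0.49 (limma adjusted p = 0.0484), and imatinib exceeded untreated BCR/ABL by 2.82 (unadjusted p = 0.00117, adjusted p = 0.120). Mcpt2, a mast cell chymase, read 4.55 on each of the 2 vector arrays, 8.13 and 8.10 without imatinib, and 9.91 and 9.02 with it, a rise of 4.91 ± 0.40 (limma adjusted p = 0.0423). Cd200r3, a receptor of mast cells and basophils, went from 7.73 and 7.28 in vector cells to 11.50 and 11.05 with imatinib, beside 11.10 and 10.88 without it, a rise of 3.77 ± 0.23 (limma adjusted p = 0.0347). For this gene the treated and untreated arrays overlapped.

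Of 13 mast cell and basophil markers, 12 were higher than vector in all 4 pairs with imatinib, none was lower, and 3 were called (Tpsab1, Cd200r3 and Hdc). The median difference was 2.44 with imatinib and 2.35 without, and against untreated BCR/ABL 9 of the 13 were higher and 1 lower in all 4 pairs, where 24.7% of all genes were higher and 26.8% lower. Tpsb2, a second tryptase, differed from vector by 5.28, Cma1, a chymase, by 4.31, Mcpt4, another chymase, by 4.02 and Fcer1a, the IgE-binding chain of the high-affinity IgE receptor, by 3.54. None of these 4 was called, and 3 of them were far apart on the vector arrays: Mcpt4 read 9.06 and 4.20, Tpsb2 read 9.82 and 5.66, and Cma1 read 10.48 and 7.51. Just outside the threshold stood Ms4a2, the signalling beta chain of the IgE receptor (difference 2.13, limma adjusted p = 0.0524), and Cpa3, mast cell carboxypeptidase (difference 2.34, adjusted p = 0.0746). Gata2, a transcription factor of stem cells and of mast cells, was higher in all 4 pairs by 0.64, with levels of 12.25 and 12.19 in vector cells and 12.88 and 12.84 with imatinib.

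The summed deposited intensity of the 13 markers was 17415 and 12691 on the vector arrays, 47055 and 46219 in untreated BCR/ABL, and 72500 and 63080 with imatinib. No marker of this list lay below an intensity of 16 on both imatinib arrays. In bulk arrays such as these, more cells of a type within the gate and more RNA per cell cannot be told apart. The labels do not name the antibodies of the lineage cocktail used in the sort. The part of a change in cell mixture in these differences was not tested.

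Promoter windows are shown for 4 of these markers because mast cell genes are textbook targets of GATA factors, whose core motif reads AGATAA, or TTATCT on the other strand. The windows come from RefSeq with build GRCm38.p6, run 5′ to 3′ on the gene's strand within the 250 bases before its start, and capitals mark the motif.
Cpa3: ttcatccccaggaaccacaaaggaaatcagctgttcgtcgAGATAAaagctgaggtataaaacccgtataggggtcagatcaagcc
Ms4a2: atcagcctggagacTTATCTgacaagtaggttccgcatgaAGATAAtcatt
Fcer1a: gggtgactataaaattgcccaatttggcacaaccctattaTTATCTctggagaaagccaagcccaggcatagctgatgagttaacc
Cd200r3: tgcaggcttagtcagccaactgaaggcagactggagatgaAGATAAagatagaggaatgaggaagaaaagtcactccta
The windows lie at chr3:20242182-20242267 (minus strand), chr19:11623720-11623770 (minus), chr1:173227276-173227361 (minus) and chr16:44943599-44943677 (plus). A promoter entry was matched for 11 of the 13 markers, and 5 of those 11 held the motif on either strand (these 4 and Slc18a2, the vesicular transporter that loads amines into granules). Of 14452 genes with a promoter entry, 8.79% held it in a window of the same length. A match of letters is a description and shows no binding.

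**Figure D2:**
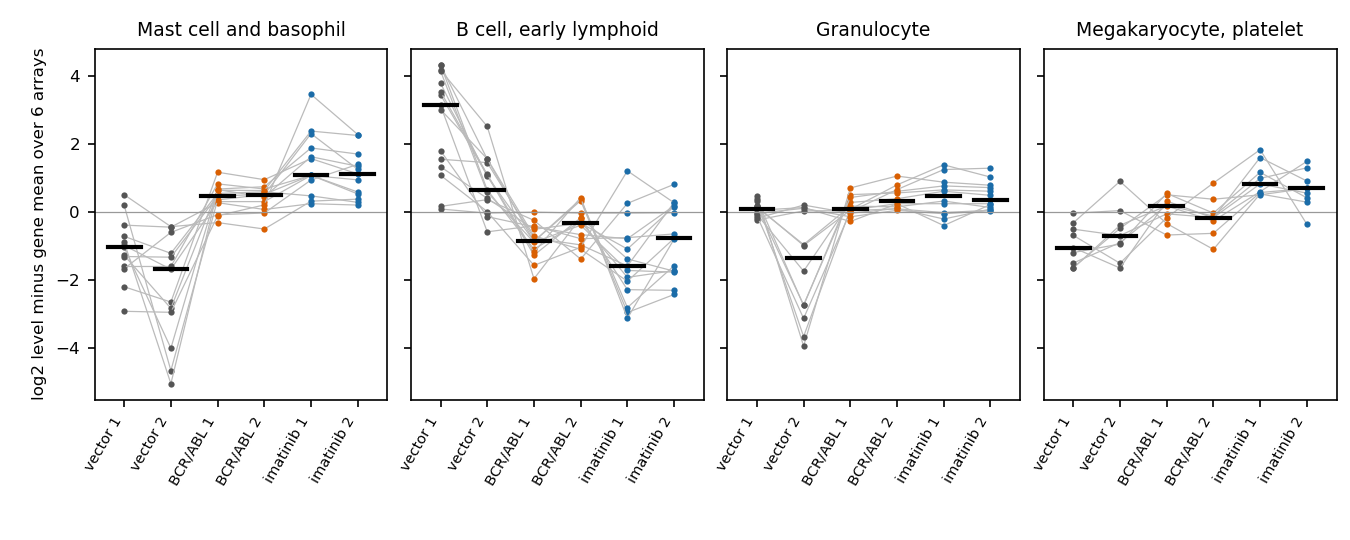
Level of each marker gene on each array minus its mean over the 6 arrays (log2), for 4 cell type lists; grey lines join the values of a gene and black bars are the medians of a list on an array. Mast cell markers lie below 0 at the median on both vector arrays and highest with imatinib, B cell markers are highest on vector replicate 1, and several granulocyte markers drop on vector replicate 2.

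Several steroid-converting enzymes also stayed above vector. Akr1c18, which inactivates progesterone, was near the floor in vector cells (4.68 and 4.04), at 12.75 and 12.58 in untreated BCR/ABL, and at 11.46 and 10.17 with imatinib. Both imatinib arrays lay below both untreated arrays and far above vector. The rise against vector was 6.46 ± 0.45 (limma adjusted p = 0.0363), beside 8.30 without imatinib, and the treated minus untreated difference was -1.85 (unadjusted p = 0.00636, adjusted p = 0.164). Cyp11a1, which makes pregnenolone from cholesterol as the entry step of steroid synthesis, was at 7.53 and 6.41 in vector cells, 12.08 and 12 without imatinib and 12.57 and 11.84 with it. Its treated and untreated arrays overlapped, and it rose by 5.24 ± 0.40 against vector (limma adjusted p = 0.0369). The neighbouring aldo-keto reductase genes Akr1c12 and Akr1c13 rose by 4.10 ± 0.31 and 2.10 ± 0.16 (limma adjusted p = 0.0369 for both). Close relatives of this family can share probe sequence, so the split of signal among the Akr1c genes is uncertain.

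Of the 13 genes on the steroid and Akr1c list, 7 were higher in all 4 pairs and 1 was lower, with a median of 0.79 beside 1.15 in untreated BCR/ABL. Hsd11b1, which regenerates active glucocorticoid, differed by 1.09 and Fdx1, the electron donor of Cyp11a1, by 1.08. Akr1c19 stood closer to vector than Akr1c18 did: it was at 4.05 on each of the 2 vector arrays, 7.49 and 7.11 without imatinib, and 4.83 and 4.85 with it. The difference of treated cells was -2.46 from untreated BCR/ABL and 0.79 from vector.

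Of the remaining called genes, Gzmb, the cytotoxic granule protease granzyme B, was at 7.44 and 6.99 in vector cells, 10.99 and 11.07 in untreated BCR/ABL and 12.57 and 11.91 with imatinib. No array of a group overlapped another group, and the rise against vector was 5.02 ± 0.26 (limma adjusted p = 0.0194). Gzmb is also on the list of T and NK cell markers, where 5 of 12 were lower in all 4 pairs, among them Cd8a (difference -2.38), a T cell co-receptor, and Gzma (-1.71), another granzyme. Cd4, Ncr1, Eomes and Tbx21 lay below an intensity of 16 on both imatinib arrays. The median difference of the list was -0.80, and -0.16 with vector replicate 1 left out. Summed intensity of the 12 markers was 2030 and 997 on the vector arrays, 2694 and 2808 without imatinib and 6614 and 4481 with it. That sum includes the bright Gzmb signal itself, so it does not describe the other markers. The part of T or NK cells in the Gzmb result was not tested.

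Genes of cell shape and adhesion were also called. Enah, an actin-elongating protein, read 6.69 and 7.16 in vector cells, 11.44 and 11.25 without imatinib, and 10.83 and 10.70 with it, a rise of 3.84 ± 0.21 (limma adjusted p = 0.0194) with all 6 of its probe sets higher. Podxl, a sialomucin of stem cells and vessels, was at 8.97 and 8.86, then 11.72 and 11.68, then 10.38 and 10.50 in the same order. The imatinib arrays of Podxl lay between the other groups without overlap, and the rise of 1.53 ± 0.12 (limma adjusted p = 0.0423) compared with 2.79 in untreated cells. Plxdc2, a transmembrane protein with a plexin domain, rose by 2.48 ± 0.18 (limma adjusted p = 0.0369), and Perp, a membrane target of p53, rose by 2.31 ± 0.16 (limma adjusted p = 0.0363).

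Sdc1, the heparan sulphate proteoglycan syndecan-1, was the single called gene below vector. It was at 10.52 and 10.74 in vector cells, 8.71 and 8.80 without imatinib, and 8.06 and 7.91 with it. The imatinib arrays were the lowest and the groups did not overlap, and Sdc1 fell by 2.64 on the log2 scale (SE 0.19, limma adjusted p = 0.0363). Over the 24 adhesion and homing genes, 11 were higher and 5 lower in all 4 pairs, beside 21.8% and 22.3% of all genes. Their median was 0.23, which was 0.15 with vector replicate 2 left out. Cdh1, E-cadherin, stood at 7.57 and 7.22 in vector cells, 11.77 and 11.68 without imatinib and 11.47 and 10.40 with it, a difference of 3.54 that was not called (limma adjusted p = 0.0805). Cdh2, N-cadherin, differed by 2.43, Sdc4, another syndecan, by -2.44 and Evl, a relative of Enah, by -1.06, also not called.

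Beyond the called genes, 824 of 18193 genes (4.53%) were higher by a mean of at least 1 in all 4 pairs, and 276 (1.52%) were lower. The count moved from 1100 to 2121 without vector replicate 2. A gene was taken to stay different when its 4 pairs with untreated BCR/ABL also shared that sign and both mean differences reached 1: these were 366 genes higher (2.01%) and 136 lower (0.748%), and 1253 in all without vector replicate 2. Both differences rest on the same vector arrays, so the count describes these 6 arrays and tests nothing. In untreated BCR/ABL, 955 genes differed from vector by at least 1 in all 4 pairs, 674 higher and 281 lower. The 502 genes that stay different are among these 955, and the others did not meet the rule with imatinib. Of the 502 genes, 285 were further from vector with imatinib than without, and 217 were nearer. Genes that imatinib brought to within 1 of vector are left out by the rule. Neither this split nor the next counts therefore describe every difference of untreated BCR/ABL. By all 4 pairs of imatinib against untreated, 93 of the higher genes were further away and 75 had moved back, and 37 of the lower genes were further away and 15 had moved back. No probe set passed the threshold between treated and untreated BCR/ABL (0 of 35877, or 0%, smallest limma adjusted p = 0.0815), although 5238 had an unadjusted p under 0.05.

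Among the retained genes with the widest gap between the groups, those above vector were Tph1, Akr1c18, Tpsab1, Gzmb, Mcpt2, Cyp11a1, Enah and Maob, described above, with Mcpt1 and Slc26a3. Mcpt1, a chymase of mucosal mast cells, was at 4.13 and 4.30 in vector cells, 7.14 and 7.98 without imatinib and 9.17 and 8.34 with it. Slc26a3, a chloride and bicarbonate exchanger, was at 4.45 and 5.21, then 8.13 and 7.95, then 9.76 and 8.86. In both genes every imatinib array exceeded every untreated array, and neither was called (limma adjusted p = 0.0805 for both).

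Those below vector were led by genes of early B cells. Rag1, a subunit of the recombinase that assembles antigen receptor genes, was at 10.85 and 9.19 in vector cells, 4.71 and 6.50 in untreated BCR/ABL, and 4.39 and 4.37 with imatinib. Ebf1, a transcription factor that commits cells to the B lineage, was at 12.04 and 9.27, then 6.85 and 8.05, then 4.76 and 5.29, with all 5 of its probe sets lower. Treated cells were at or near the floor for both genes, and the vector arrays of both lay above every other array. The differences of -5.64 for Rag1 and -5.63 for Ebf1 did not pass the threshold (limma adjusted p = 0.122 and 0.138).

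Of 15 B cell and early lymphoid markers, 11 were lower than vector in all 4 pairs with imatinib, none was higher, and none was called by limma. The median was -3.70 with imatinib and -2.66 without. Igll1, a surrogate light chain, differed by -4.62, Cd79a, a signalling chain of the B cell receptor, by -4.32, Mzb1, an endoplasmic reticulum protein of B cells, by -4.26, Pou2af1, a B cell transcriptional coactivator, by -4.22 and Blnk, an adaptor of B cell receptor signalling, by -3.82. The vector arrays were unequal here: centred on each gene's mean over 6 arrays, the list's median was 3.14 on vector replicate 1 and 0.65 on vector replicate 2. The summed intensity was 43382 and 17925 on the vector arrays, 5932 and 5999 in untreated BCR/ABL, and 6899 and 11041 with imatinib. The sum was thus higher with imatinib than without, whereas the median lay lower. A sum weighs bright members most, so it does not describe the dimmer markers. The list's median was -2.33 with vector replicate 1 left out and -4.42 with vector replicate 2 left out. Cd79a, Pax5, Rag1 and Ms4a1 lay below an intensity of 16 on both imatinib arrays. Ly6d, a surface mark of B-biased lymphoid progenitors, differed by -3.70 and Cxcl9, an interferon-induced chemokine outside this list, differed by -4.17.

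Not every lymphoid gene stayed low. Il7r, the interleukin-7 receptor chain, was at 11.08 and 10.01 in vector cells, 8.43 and 8.96 in untreated BCR/ABL, and 11.21 and 10.27 with imatinib. Flt3, a receptor of early multipotent and lymphoid progenitors, was at 10.92 and 11.12, then 10.51 and 9.37, then 11.01 and 11.57. In both genes the treated arrays lay among or above the vector arrays and above both untreated arrays (unadjusted p = 0.00426 and 0.0128 against untreated, not called after adjustment). Il7r and Flt3 were chosen after their values were seen.

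Megakaryocyte and platelet genes were higher with imatinib than in either other group. Of 9 markers, 8 were higher than vector in all 4 pairs, with a median of 1.84 beside 1.24 in untreated BCR/ABL, and 7 of 9 were higher and none lower in all 4 pairs of imatinib against untreated, where the share of all genes higher was 24.7%. Itgb3, the beta chain of the platelet fibrinogen receptor, was at 8.74 and 9.34 in vector cells, 10.44 and 10.12 without imatinib, and 11.23 and 11.54 with it. The 3 groups of Itgb3 did not overlap, and the difference from vector was 2.34 (limma adjusted p = 0.0805). Rab27b, a GTPase of granule release, differed by 2.61, Gp9, part of the von Willebrand factor receptor, by 2.06 and Itga2b, the partner of Itgb3, by 1.86. The summed intensity of the list was 3894 and 5891 on the vector arrays, 7067 and 5338 without imatinib and 13641 and 11360 with it, and the part of a change in cell mixture was not tested.

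Granulocyte markers gave a median difference above 0 whose size depended on a single vector array. Of 12, 7 were higher in all 4 pairs with a median of 1.05, which became 0.26 when vector replicate 2 was left out and 1.76 when vector replicate 1 was. The summed intensity of the list was 81162 and 51134 on the vector arrays, 79779 and 91274 without imatinib and 87994 and 92757 with it, and the part of a change in cell mixture was not tested. Mmp8, a neutrophil collagenase, was at 8.77 and 5.75 in vector cells and 10.13 and 10.17 with imatinib, and Ltf, lactoferrin, at 11.71 and 7.29 against 12.11 and 12.02. Mmp9, a gelatinase, and Ngp, a granule protein, showed the same low second vector array (10.43 and 6.43, and 12.24 and 9.33). The primary granule genes Mpo, Elane, Prtn3 and Ctsg differed by between -0.18 and 0.12.

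The lipoxygenase and leukotriene pathway makes inflammatory lipids from arachidonic acid, and its gene Alox5 is known from work on leukaemic stem cells in this type of model. Alox5 was at 7.87 and 6.59 in vector cells, 11.36 and 11.19 in untreated BCR/ABL, and 10.77 and 9.84 with imatinib. The treated arrays lay below both untreated arrays and above both vector arrays. The difference from vector was 3.08 ± 0.48 with imatinib, an 8.43-fold difference that did not pass the threshold (limma adjusted p = 0.127), beside 4.04 without imatinib. The treated minus untreated difference was -0.97 (unadjusted p = 0.0900).

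Other members of this pathway did not all follow Alox5. Alox15, which oxygenates arachidonic acid at another carbon, was at 5.44 and 5.31 in vector cells, 7.98 and 7.54 without imatinib and 9.74 and 8.43 with it, so its treated arrays were the highest. Alox8 was at 4.23 and 4.19, then 8.04 and 8.15, then 8.14 and 7.10, with treated and untreated arrays overlapping. Hpgds, the prostaglandin D synthase of mast cells and other blood cells, differed from vector by 1.55 with imatinib and 1.07 without. Of 17 genes on the list, 10 were higher in all 4 pairs, 2 were lower and none was called, with a median of 0.86 beside 0.63 in untreated BCR/ABL.

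Of 26 cytokine and chemokine genes, 13 were higher than vector in all 4 pairs with imatinib and 1 was lower, with a median of 0.47 beside 1.15 without imatinib, and 17 were lower and 5 higher in all 4 pairs of imatinib against untreated, where 26.8% of all genes were lower. Leaving out imatinib replicate 1 gave a list median of 0.29 against vector, and leaving out imatinib replicate 2 gave 0.73. Il6, an inflammatory cytokine of the leukaemic marrow, was at 5.63 and 5.92 in vector cells, 11.40 and 10.90 in untreated BCR/ABL, and 9.12 and 7.85 with imatinib. Il4, a cytokine of basophils and T cells, was at 5.77 and 5.40, then 10.76 and 10.75, then 8.50 and 7.76. Both had treated arrays about midway, overlapping neither group, with differences from vector of 2.71 and 2.55 (limma adjusted p = 0.140 and 0.116). Ccl3, an inflammatory chemokine, stood 2.50 above vector with imatinib and 3.68 without.

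Some cytokine genes were at the vector level with imatinib. Ccl24, an eosinophil chemokine, was at 4.29 and 4.55 in vector cells, 7.87 and 7.62 in untreated BCR/ABL, and 4.60 and 4.15 with imatinib. Il13, a type 2 cytokine, was at 4.20 and 4.73, then 8.24 and 8.09, then 5.10 and 4.42. The treated and vector arrays of both overlapped, and the treated minus untreated differences were -3.37 and -3.40 (unadjusted p = 4.49e-05 and 0.000146, not called after adjustment). These 2 genes were chosen after their values were seen, to set beside Il4, whose gene neighbours Il13.

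Of 18 STAT5 target genes, 9 were higher than vector in all 4 pairs and 2 lower, beside 21.8% and 22.3% of all genes. The list's median was 0.22 beside 0.48 without imatinib, and none was called. The median was 0.13 with imatinib replicate 1 left out and 0.08 with arrays aligned by medians. Socs2, a feedback inhibitor of cytokine receptors, was at 11.37 and 10.48 in vector cells, 12.34 and 12.11 in untreated BCR/ABL, and 12.34 and 12.26 with imatinib. Cish, a related inhibitor named after its values were seen, was at 9.13 and 7.99, then 11.07 and 10.83, then 9.25 and 9.12. Treated Socs2 overlapped the untreated arrays, whereas treated Cish overlapped the span of the vector arrays only at its lower value and lay below both untreated arrays. Il2ra, the interleukin-2 receptor alpha chain, stood 1.98 above vector with imatinib and 3.59 without, and Osm, oncostatin M, 1.12 and 3.16.

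Of 17 RAS and ERK feedback genes, 3 were higher and 1 lower than vector in all 4 pairs, and none was called. Both counts lay below the shares of all genes, 21.8% higher and 22.3% lower. The list's median was 0.17 beside 0.73 in untreated BCR/ABL. The sign of that median hung on single arrays: it was -0.14 with imatinib replicate 1 left out, 0.41 with imatinib replicate 2 left out and 0.03 with vector replicate 2 left out. Ier3, an early response gene, was at 10.01 and 10.59 in vector cells and 11.57 and 11.11 with imatinib, close to 11.43 and 11.41 without it. Emp1, a membrane protein, differed from vector by -0.88, Spry2, an inhibitor of receptor signalling, by 0.45 and Dusp5, an ERK phosphatase, by 0.17. Phlda1, chosen after its values were seen, was at 6.88 and 5.85 in vector cells, 9.65 and 9.20 in untreated cells, and 6.85 and 5.88 with imatinib, so treated and vector arrays overlapped.

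Of 8 CDK inhibitor genes, 5 were higher than vector in all 4 pairs, none was lower in all 4 and none was called, and 2 met the rule for staying different. Cdkn2a, which encodes p16 and p19ARF, was at 5.18 and 4.06 in vector cells, 8.05 and 7.14 without imatinib, and 7.50 and 5.81 with it. Cdkn2b, its neighbour, was at 4.58 and 4.44, then 7.78 and 7.63, then 6.48 and 5.12. Treated arrays exceeded vector in both genes, and neither was called (limma adjusted p = 0.316 and 0.354). Of 16 genes listed as p53 targets, 12 were higher in all 4 pairs and none was lower, beside 21.8% and 22.3% of all genes. Their median was 0.68 with imatinib and 0.85 without. Besides Perp, Eda2r and Fas, both receptors of the TNF receptor family, differed by 1.56 and 1.31, and Zmat3, an RNA-binding protein, by 1.03. Trp53inp2, an autophagy protein also placed on this list, differed by 1.47. Control of the listed genes by p53 was not tested.

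**Figure D3:**
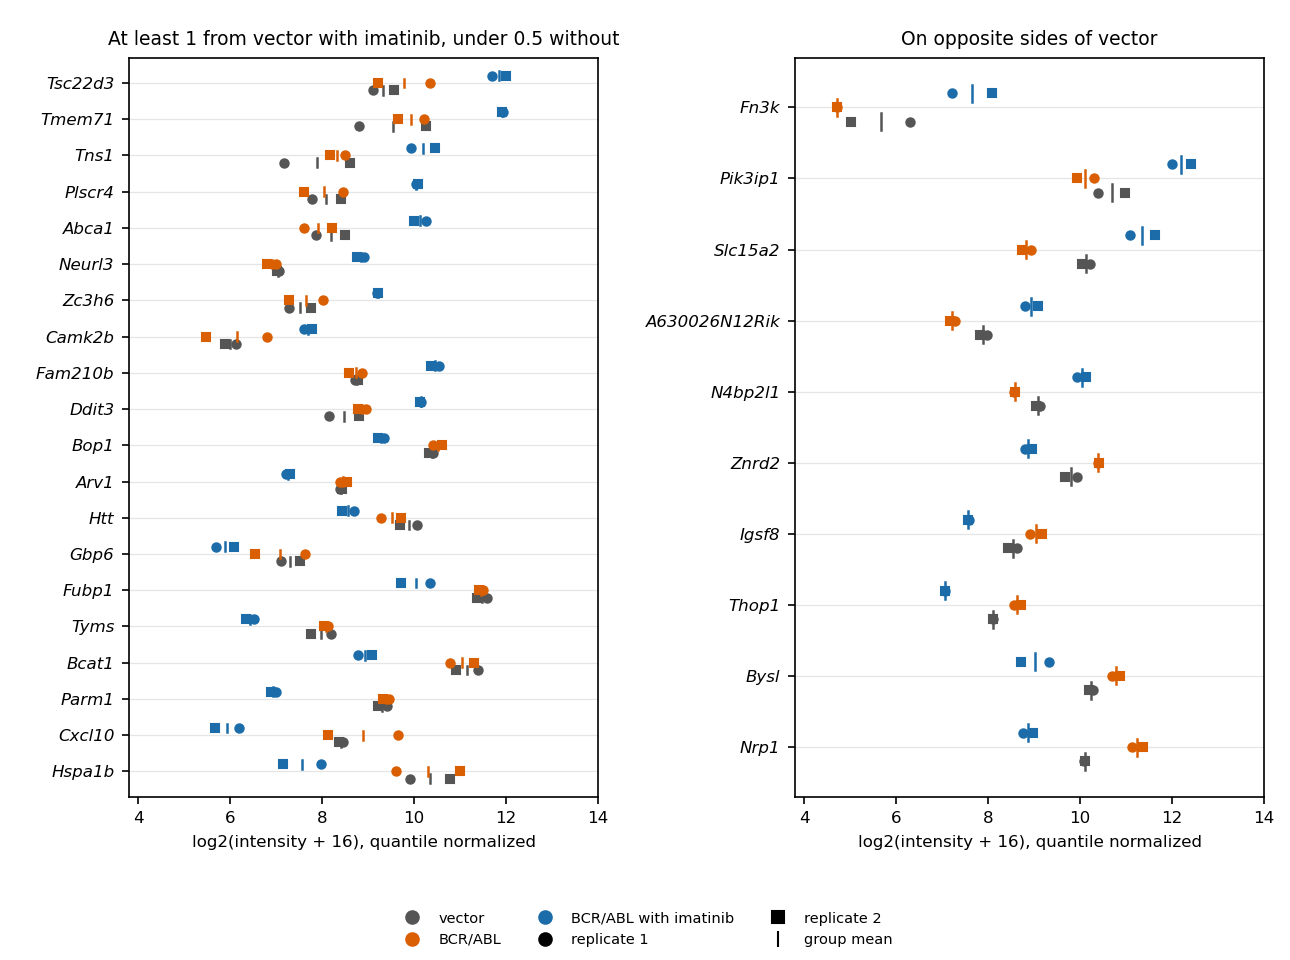
Levels on each array, log2(intensity + 16), of the 20 named genes at least 1 from vector with imatinib and under 0.5 from it without (left), and of 10 named genes whose treated and untreated levels lie on opposite sides of vector (right); circles and squares are replicates 1 and 2 and short bars are group means. In the left panel treated arrays stand apart while vector and untreated means lie under 0.5 from each other. Single untreated arrays can lie further from vector, as for Cxcl10 and Tsc22d3. In the right panel vector arrays lie between the other groups.

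A further set of genes differed from vector with imatinib and hardly without it. These were genes with a mean difference from vector of at least 1 in all 4 pairs, the same direction in all 4 pairs against untreated BCR/ABL, and an untreated difference under 0.5: 197 genes higher (1.08%) and 69 lower (0.379%). The total of 266 became 452 without imatinib replicate 1 and 459 without imatinib replicate 2. With no normalization between arrays the split was 289 higher and 37 lower, and with arrays aligned by their medians 137 and 89. The test of the difference is imatinib against untreated, where 182 of the 266 had an unadjusted limma p under 0.05 and 0 passed after adjustment. The rule already asks those same pairs to agree, so the 182 is no independent support for these genes.

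Tsc22d3, also called GILZ and induced by glucocorticoids and by FoxO factors, was at 9.11 and 9.56 in vector cells, 10.35 and 9.21 in untreated BCR/ABL, and 11.69 and 12 with imatinib. Its vector and untreated arrays overlapped, both treated arrays were above all of them, and the difference from vector was 2.52 (limma adjusted p = 0.125), a 5.72-fold difference. Ddit3, which encodes the stress factor CHOP, was at 8.15 and 8.81, then 8.95 and 8.79, then 10.14 and 10.13. Abca1, a cholesterol exporter, was at 7.87 and 8.50, then 7.60 and 8.21, then 10.26 and 10. In Ddit3 and Abca1 too the treated arrays stood above the other 4.

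The other higher genes by this rule were Tmem71, a transmembrane protein (difference 2.39), Tns1, which links integrins to actin (2.30), Plscr4, a phospholipid scramblase (1.96), Neurl3, a ubiquitin ligase (1.80), Zc3h6, a zinc finger protein (1.70), Camk2b, a calcium-dependent kinase (1.69), and Fam210b, a mitochondrial protein (1.69). Fam210b had the smallest adjusted p among the 10 (0.0805 by limma). Bcl2l11, which encodes the death-promoting BIM, also met the rule: 10.05 and 9.97 in vector cells, 9.98 and 9.46 without imatinib, and 11.65 and 11.07 with it, with all 5 probe sets higher. It led the 15 BCL2 family genes, of which 5 were higher and 2 lower in all 4 pairs. Bnip3, a mitophagy receptor, differed by 0.68, Bcl2l2, a survival protein, by 0.48, and Bak1, which opens the mitochondrial membrane, by -0.42.

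On the lower side, Parm1, a mucin-like membrane protein, was at 9.40 and 9.22 in vector cells, 9.46 and 9.32 in untreated BCR/ABL, and 6.99 and 6.88 with imatinib. The 4 arrays without imatinib lay close together and both treated arrays were over 2 units below them. The difference of -2.38 was just outside the threshold (limma adjusted p = 0.0697). Bcat1, a transaminase of branched-chain amino acids, was at 11.39 and 10.91, then 10.79 and 11.30, then 8.77 and 9.09. Tyms, thymidylate synthase, was at 8.19 and 7.75, then 8.13 and 8.05, then 6.52 and 6.35. Treated arrays of both genes were below the other 4.

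Hspa1b, an inducible heat shock chaperone, was at 9.91 and 10.78 in vector cells, 9.61 and 10.99 without imatinib, and 7.97 and 7.14 with it. Hspa1b was also on the list of genes that respond to handling of cells. There 2 of 20 were higher and 3 lower in all 4 pairs, beside 21.8% and 22.3% of all genes, with a median of -0.05. The part of handling in the Hspa1b difference was not tested. Cxcl10, an interferon-induced chemokine, was at 8.45 and 8.36, then 9.66 and 8.12, then 6.20 and 5.68, with the treated arrays the lowest. Gbp6, an interferon-induced GTPase, differed by -1.42, Fubp1, which binds single-stranded DNA upstream of Myc, by -1.45, Htt, huntingtin, by -1.31, Arv1, a lipid transport protein, by -1.15 and Bop1, a ribosome assembly factor, by -1.11.

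Another 68 genes lay on opposite sides of vector with and without imatinib by at least 0.5 each, 37 above vector with imatinib and 31 below. The split was 25 and 100 with arrays aligned by their medians. Without imatinib replicate 1 the total was 160, without BCR/ABL replicate 1 it was 135, and without vector replicate 1 it was 107. Pik3ip1, an inhibitor of PI3 kinase, was at 10.39 and 10.98 in vector cells, 10.29 and 9.92 in untreated BCR/ABL, and 12 and 12.40 with imatinib. Slc15a2, a peptide transporter, was at 10.22 and 10.03, then 8.93 and 8.74, then 11.08 and 11.62. In these genes the vector arrays lay between the others, and for Slc15a2 only 1 of 3 probe sets had this direction.

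Fn3k, which removes sugars from proteins, was at 6.30 and 5.02 in vector cells, 4.72 on each of the 2 untreated arrays, and 7.21 and 8.08 with imatinib. N4bp2l1 and A630026N12Rik differed from vector by 0.94 and 1.05 with imatinib and by -0.51 and -0.67 without. On the other side Nrp1, a co-receptor for semaphorins and VEGF, was at 10.09 and 10.11, then 11.12 and 11.36, then 8.75 and 8.98. All 4 probe sets of Nrp1 were lower than vector with imatinib, and against untreated cells Nrp1 had the difference of -2.38 with the smallest adjusted p of all probe sets (0.0815 by limma). Bysl, a factor of small ribosomal subunit assembly, differed from vector by -1.22 with imatinib and 0.55 without, Thop1, a peptidase, by -1.04 and 0.53, Igsf8, a tetraspanin partner, by -0.96 and 0.50, and Znrd2, a zinc ribbon protein, by -0.92 and 0.60.

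Kit, itself bound by imatinib, met the same rule: 10.71 and 11.06 in vector cells, 10.37 and 10.13 without imatinib, and 11.38 and 11.39 with it. Treated arrays lay above vector and untreated arrays below, and the difference between treated and untreated was 1.13 (unadjusted p = 0.000363, not called after adjustment). Pdgfrb, a PDGF receptor and the leading member of the 13 SRC family and imatinib- or dasatinib-binding kinase genes, was at 8.47 and 8.88, then 9.19 and 8.92, then 9.86 and 10.35. Of those 13 genes, 6 were higher and 3 lower than vector in all 4 pairs, beside 21.8% and 22.3% of all genes.

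Genes that FoxO factors control, together with genes of quiescent cells, had medians on opposite sides of vector. Of 26, 16 were higher than vector in all 4 pairs with imatinib and 1 was lower, with a median of 0.49 beside -0.51 in untreated BCR/ABL, and 22 were higher and 2 lower in all 4 pairs of imatinib against untreated, where 24.7% of all genes were higher. Pik3ip1 led. Ypel3, a growth suppressor, was at 9.31 and 9.46 in vector cells, 8.36 and 8.43 in untreated BCR/ABL, and 10.18 and 10.44 with imatinib. Gadd45a, a growth arrest gene, was at 10.19 and 9.88, then 10.04 and 9.93, then 10.97 and 10.73. Both genes had treated arrays above all others, and untreated Gadd45a overlapped vector. Irs2, an adaptor of the insulin receptor, stood 1.09 above vector with imatinib and 0.93 without. Ypel3, Pik3ip1, Ccng2 and Trp53inp1 were the 4 of the list on opposite sides of vector. Cdkn1b, which encodes p27, was at 11.64 and 11.59 in vector cells, 11.10 and 10.95 without imatinib, and 11.91 and 12.01 with it. Foxo1 was the member lower in all 4 pairs, with a difference of -0.69, and Foxo3 differed by 0.24. None of the 26 was called. The FoxO motif GTAAACA, or TGTTTAC on the other strand, was found in the 250 bases before the start of 2 of 21 matched genes of this list (Txnip and Btg1) and in 3.04% of 14452 genes.

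**Figure D4:**
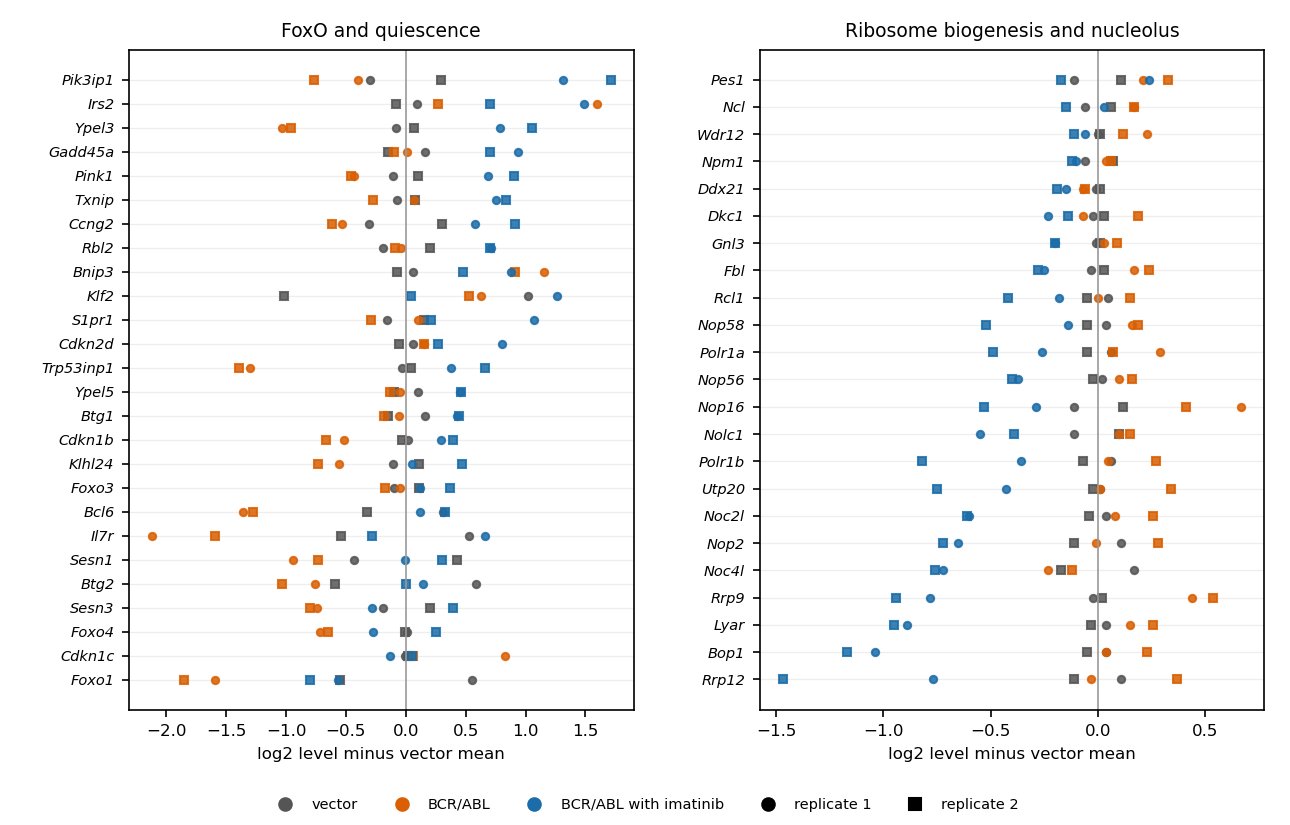
Level on each array minus the vector mean (log2) for 26 FoxO and quiescence genes (left) and 23 ribosome biogenesis and nucleolar genes (right), ordered by the difference between imatinib and vector; circles and squares are replicates 1 and 2. On the left most treated values lie above 0 and most untreated values below, and on the right treated values lie below 0 for all genes, apart from Pes1 and Ncl on replicate 1.

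Ribosome biogenesis ran the other way by small amounts. Of 23 genes, 21 were lower than vector in all 4 pairs with imatinib, none was higher and none was called, with a median of -0.39 beside 0.17 in untreated BCR/ABL, and 22 were lower in all 4 pairs against untreated, where 26.8% of all genes were lower. Rrp12, a ribosome export factor, was at 9.17 and 8.95 in vector cells, 9.03 and 9.43 in untreated BCR/ABL, and 8.29 and 7.59 with imatinib. Bop1 was at 10.42 and 10.33, then 10.42 and 10.61, then 9.34 and 9.21. Lyar, a nucleolar protein, was at 11.98 and 11.91, then 12.09 and 12.20, then 11.05 and 10.99, and Rrp9, a snoRNA-binding protein, differed from vector by -0.86. In each of these genes both treated arrays were below the other 4, and Lyar came nearest to the threshold (limma adjusted p = 0.0803). For Bop1 only 1 of 2 probe sets had this direction. Aligning arrays by medians gave -0.48 for the list, where the median over all genes was -0.089. Myc, which drives many of these genes, read 11.14 and 11.17 in vector cells, 11.30 and 11.21 without imatinib and 11.08 and 11.15 with it. The E-box CACGTG, which reads the same on both strands and is bound by Myc among other factors, was in the promoter window of 1 of 19 matched genes (Nop2) and in 8.73% of all.

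Replication and mitosis genes were also lower by small amounts. Of 26, 19 were lower in all 4 pairs, where 22.3% of all genes were lower, none was higher and none was called. The list's median was -0.31 beside -0.07 in untreated BCR/ABL. With imatinib replicate 2 left out the median was -0.17. After Tyms the widest differences seen in all 4 pairs were in Plk1 (-0.71), a mitotic kinase, Mcm2 (-0.64), part of the replicative helicase, and Aurka (-0.56), a spindle kinase. Mki67, the proliferation marker, differed by -0.29. These lists cannot separate fewer cycling cells from less of each transcript per cell.

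Of 17 interferon response genes, 9 were lower and 1 higher than vector in all 4 pairs, beside 22.3% and 21.8% of all genes. The list's median was -0.40 (-0.26 with imatinib replicate 1 left out) beside 0.27 in untreated BCR/ABL. After Cxcl10, the widest were Iigp1 (-1.75) and Igtp (-0.77), both interferon-induced GTPases, and Rsad2, the antiviral protein viperin, which was higher by 0.82. The untreated arrays differed between themselves here: Cxcl10 read 9.66 on BCR/ABL replicate 1 and 8.12 on replicate 2.

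Stem cell identity genes were partly higher with imatinib. Of 26, 12 were higher in all 4 pairs and 1 was lower, beside 21.8% and 22.3% of all genes. The median was 0.61, beside 0.02 in untreated BCR/ABL, and it was 0.20 without vector replicate 1. Against untreated BCR/ABL, 15 of the 26 were higher in all 4 pairs and 1 (Thy1) was lower. Over all genes those shares were 24.7% and 26.8%. Thy1, a surface protein low on mouse stem cells, was at 7.66 and 8.31 in vector cells, 10.70 and 10.89 without imatinib, and 10.15 and 9.69 with it. Prdm16, a chromatin regulator needed by stem cells, was at 5.30 and 6.07, then 9.70 and 7.84, then 7.16 and 8.18. Esam, an adhesion molecule of stem cells, and Fgd5, a stem cell reporter gene, differed by 1.85 and 1.77 with imatinib and by 0.71 and 1.47 without. None of them was called. Cd34 and Bmi1 differed by 0.11 and -0.07.

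Among 23 cytokine receptor genes, 9 were higher and 3 lower in all 4 pairs, beside 21.8% and 22.3% of all genes. Their median was 0.21, which was between 0.36 and 0.40 with any vector or imatinib array left out. Csf2rb2, a beta chain of the interleukin-3 receptor, was at 9.88 and 9.61 in vector cells, 11.55 and 10.75 without imatinib and 11.76 and 10.79 with it. Il2rb differed from vector by -1.75 and Lifr, the LIF receptor, by 1.49. Of 13 ABC and drug transporter genes, 7 were higher in all 4 pairs and none was lower, with a median of 0.50, which was 0.17 with vector replicate 1 left out. Besides Abca1 and Slc15a2, Abcb1a, a P-glycoprotein gene, differed by 1.12 and Abcc3, another exporter, by 0.91. Abcg2, an exporter known to carry imatinib, was at 10.80 and 11.10 in vector cells and 11.23 and 11.20 with imatinib.

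**Figure D5:**
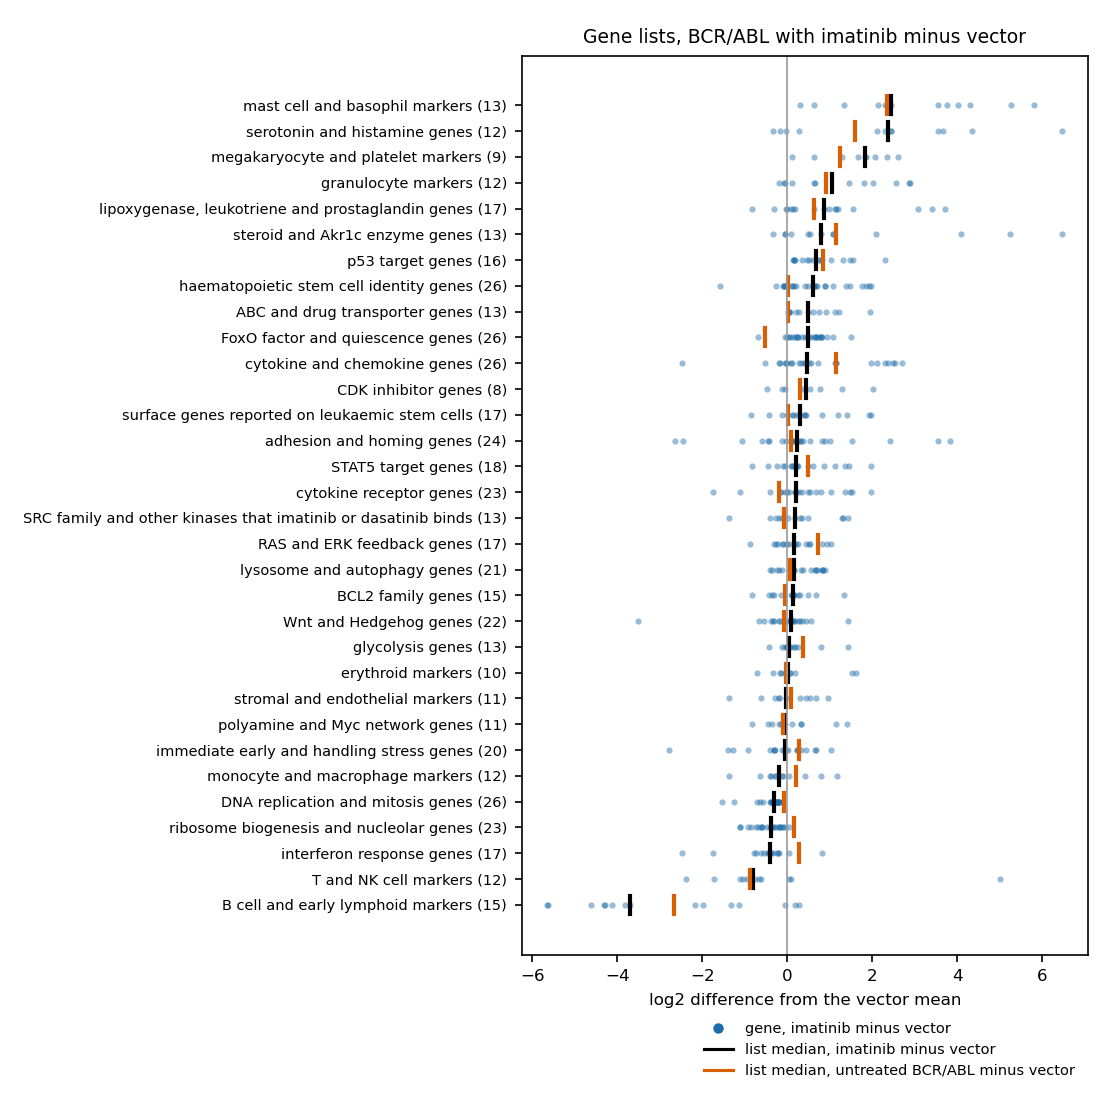
Difference from the vector mean with imatinib (log2) for each gene of 32 lists, with the number of measured genes in brackets; black and orange bars are the list medians with and without imatinib. Mast cell markers (median 2.44) and serotonin and histamine genes (2.37) lie furthest above 0 and B cell markers (-3.70) furthest below, and several lists, among them interferon, FoxO and ribosome biogenesis genes, have their 2 medians on opposite sides of 0.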

How the data were processed

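RNA of sorted mouse stem cells was measured on 6 arrays, 2 per group, grouped by sample title. The deposited values are linear intensity per probe set, made by the authors with Affymetrix Expression Console and MAS5 per the submitters' processing notes, versions not given in the sources used here. Each array had a trimmed mean of 500. The labels' protocols name a whole-transcript array, whereas the probe set identifiers belong to a 3-prime array, and the labelling used is unsettled.

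Without 64 controls, 45037 probe sets were transformed as log2(value + 16) and quantile normalized. In the platform annotation 34945 probe sets had 1 symbol, 932 several and 9160 none. The 35877 with a symbol were tested, two-sided, with limma 3.58.1 in R 4.3.3 (lmFit, eBayes with trend, 3 residual and 2.97 prior degrees of freedom), Benjamini-Hochberg adjustment and a threshold of 0.05. Each of 18193 genes was represented by its brightest probe set. The fit was also run on simulated arrays with independent noise and with changes planted in bright probe sets only. That setting does not cover called genes near the floor.

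Members and the 33 gene lists were chosen with earlier results of these data known. Named genes were up to 12 called genes on each side, 10 on each side that stayed different, 10 that differed with imatinib only and 5 on opposite sides of vector, by smallest pair difference and with a brighter group mean of at least 7. From each list, called members and up to 4 with the widest difference in all 4 pairs were named. Other genes were named after their values were seen. Some genes are not reported here. Alternatives covered each array left out, constants of 1 and 64, normalization, a filter on dim probe sets, the variance prior and a replicate block.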

Additional observations from a re-analysis of the deposited data

Results flagged for a closer look

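Probe sets that the annotation gives no gene symbol were outside every comparison above. Of 9160 such probe sets, 183 were higher than vector by at least 1 in all 4 pairs with imatinib and 374 were lower. By the same rule 4.53% of the 18193 genes were higher and 1.52% lower, so there the balance ran the other way. Each gene was represented by its brightest probe set, whereas these counts take in dim ones, so the shares are not directly comparable. The cause of the difference was not tested. Examples above vector were probe sets 1427355_at (4.53 in vector, 7.27 in untreated BCR/ABL, 10.23 with imatinib) and 1420250_at (7.32, 11.89 and 11.71). Examples below it were 1459916_at (11.15, 7.84 and 4.79) and 1428720_s_at (9.52, 6.01 and 6.22).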

How the results depend on the processing

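Alternatives were run for 57 of the named genes (those called or with the widest pair differences). None changed sign, but genes picked for pairs that share a sign cannot change it when an array is left out. Of 851 values, 675 kept their side of the threshold, many of them for genes that were not called to begin with, and 54 gained the call. All 122 lost calls fell on the 15 called genes. Of 15 alternatives each, these kept the call in between 4 (Tpsab1) and 10 (Gzmb and Tph1). Calls, 16 as reported, ran from 0 to 54 when each array was left out, and were 78 with a constant of 1, 3 with 64, 275 with arrays aligned by medians, 181 above the 50th percentile of signal, 28 with a robust prior, and 0 with no trend or with only the 4 arrays compared. Changes of at least 1 in all 4 pairs (1100) ran from 1100 to 2121 by array, and were 2568 and 603 with constants of 1 and 64, and 639 above the 50th percentile. Genes that stayed different (502) ran from 453 to 1253, and were 1142, 261 and 285. Genes that differed with imatinib only (266) ran from 222 to 459, and were 550, 151 and 168. Genes on opposite sides (68) ran from 70 to 160, and were 132 and 34 with the constants, 125 with array medians and 40 with probe sets averaged. Leaving out an array leaves fewer pairs to agree, and the filter leaves fewer genes. The cause of the other moves was not tested. With the replicate number as a block there were 9 calls. Differences between same-numbered arrays correlated at 0.21 (vector and imatinib), -0.04 and 0.11 over genes, so the numbers were not taken to pair samples. Over scalings, medians relative to all genes changed sign for erythroid, stromal and glycolysis lists. With 2 arrays a group, the number of arrays limits every value.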

Other observations

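Several lists not described above moved little or through a few genes. Of 22 Wnt and Hedgehog genes, 3 were higher and 5 lower than vector in all 4 pairs with imatinib. Over all genes those shares were 21.8% and 22.3%. The list's median of 0.09 was -0.01 without vector replicate 1, -0.04 without imatinib replicate 1 and -0.04 with arrays aligned by medians. Lef1, a transcription factor of Wnt signalling and of early lymphocytes, was at 12.01 and 8.75 in vector cells, 7.78 and 7.52 in untreated BCR/ABL, and 7.70 and 6.05 with imatinib, and Fzd6, a Wnt receptor, differed by 1.43. Among 17 surface genes reported on leukaemic stem cells, 6 were higher and 2 lower. Siglece, a sialic acid receptor, was at 7.47 and 7.68, then 8.72 and 9.02, then 8.84 and 9.12, with treated and untreated arrays overlapping above vector, and Cd33 differed by 1.19.

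Irf8, a transcription factor of monocytes and dendritic cells whose loss accompanies myeloid leukaemia, was at 12.15 and 10.89 in vector cells, 9.88 and 9.93 in untreated BCR/ABL, and 9.77 and 10.52 with imatinib. It was 1 of 2 monocyte and macrophage markers of 12 that were lower in all 4 pairs. Of 21 lysosome and autophagy genes, 11 were higher and 4 lower, with a median of 0.17, or 0.41 without imatinib replicate 2. Polyamine and Myc network genes (5 higher and 3 lower of 11), glycolysis genes (3 and 1 of 13), erythroid markers (0 and 0 of 10), and stromal and endothelial markers (2 and 2 of 11) had medians between -0.04 and 0.04, whose signs changed with single arrays left out. None of the genes in this section was called by limma in imatinib against vector.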
